A study of Mus musculus with 8 samples.

Results

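The genes that encode the proteins of the cytosolic ribosome were read from total RNA-seq of mouse pancreas buds at embryonic day 11 (E11.0). Members were chosen by name alone, as every gene called Rpl or Rps plus a number and at most 1 of the letters a, l or x, together with *Rplp0*, *Rplp1*, *Rplp2* and *Rpsa*. Pseudogenes and the S6 kinases were left out. The rule picked 81 of the 24341 genes of the table, 49 of them for the large subunit and its stalk and 32 for the small subunit. It read no measured value, but the set was proposed with this genotype contrast already seen, so differences between genotypes over the set are given as a description and nothing rests on them.

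The 8 libraries came from 5 WT and 3 Lats1/2PanKO buds of about 40 somites on the CD1 strain, with 1 library per bud. Lats1/2PanKO buds carried Pdx1Cre early and floxed alleles (f/f) of both *Lats1* and *Lats2*, and so lacked LATS1 and LATS2, the kinases at the end of the Hippo cascade that restrain the transcriptional coactivators YAP1 and TAZ, in cells in which Pdx1-driven Cre had acted. That Cre acts in pancreatic progenitors, and blood, vessel and mesenchymal cells left in a bud keep both genes. Mesenchyme was pulled away with forceps from the buds of both genotypes. The labels name the controls WT only and do not say whether they carried floxed alleles. The paper's methods state that mutant pancreata were set against WT or heterozygous littermates, and call the RNA-seq controls WT.

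Each ribosome holds a single copy of nearly every ribosomal protein, and cells match the supply of the proteins to each other and to the ribosomal RNA. The mRNAs are short and abundant, and most begin with a C followed by a run of pyrimidines, the terminal oligopyrimidine (TOP) tract, through which mTOR and LARP1 set their translation and stability. When assembly fails, free RPL5 and RPL11 bind MDM2 and so stabilize p53, and loss of a single copy of genes such as *Rps19* causes Diamond-Blackfan anemia in humans.

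All 8 libraries listed between 16117 and 16982 genes above 0 FPKM, that is, fragments scaled by transcript length and by the size of the library. FPKM hold no read counts, and the value that a single fragment took at low genes was 0.97 to 1.04 times that of WT replicate 1 in every library except WT replicate 5, where it was 1.27 times, so WT replicate 5 was the shallowest library. *Lats1* was at 15.6 ± 0.905 FPKM in WT (SD, n = 5) and 12.1 ± 1.87 in Lats1/2PanKO (n = 3) with no overlap, and *Lats2* was at 13.8 ± 1.26 and 12.3 ± 1.15 with overlap. Both values cover the whole gene. All 6 epithelial markers, *Pdx1* and *Epcam* among them, were above 0 in every bud, and their summed FPKM was 193 to 250 in WT and 361 to 872 in Lats1/2PanKO. The mutant sums were 426.6, 361 and 871.9 in replicates 1 to 3. *Pdx1* overlapped between genotypes, at 9.955 to 21.85 FPKM in WT and 15.3 to 48.55 in Lats1/2PanKO. The 6 include *Sox9*, which the paper lists as a known TEAD target. The summed markers were 212 to 309 against 114 to 223 for mesenchyme (6 genes), 87.4 to 142 against 62.3 to 95.6 for endothelium (5), 2570 to 15280 against 7772 to 9829 for red blood cells (5), 4.02 to 9.7 against 6.38 to 13.3 for leukocytes (4), 9.32 to 15.5 against 11.7 to 22.8 for nerve and neural crest (4) and 86.4 to 151 against 116 to 338 for liver (4). The liver sum was almost only *Ttr*, at 83.14 to 141.7 FPKM in WT and 107.4 to 318.1 in Lats1/2PanKO. *Alb* was at 0.6336 to 3.964 and 0.5418 to 4.109 FPKM. All 4 liver markers overlapped between genotypes. No marker was at 0 in all libraries.

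Ribosomal protein genes were among the most abundant transcripts of the bud and mostly lay close to each other. They made up 42 of the 100 highest genes by mean FPKM and 14 of the 50 highest. The 78 members with a mean of at least 0.5 FPKM, those that entered the test, had a median of 864.2 FPKM, 57 had a mean between 500 and 1500 FPKM, and 64 were over 500 FPKM in every library. In total the 81 genes held 12.5% to 14.3% of the summed FPKM of a WT library and 12.2% to 13.8% of a Lats1/2PanKO library. These shares also move with rows of small RNAs, which held 12.5% to 26.1% of a library's summed FPKM.

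At the top stood the proteins of the stalk, the flexible arm of the large subunit that recruits translation factors. *Rplp2* was at 3325.26, 3273.06, 3482.44, 3728.42 and 4293.96 FPKM in WT replicates 1 to 5 and at 3327.47, 3702.61 and 3325.07 in Lats1/2PanKO replicates 1 to 3. Its partner *Rplp1* was at 1967.59, 2152.92, 2247.74, 2418.85 and 2566.64 FPKM in WT and 2153.34, 2212.5 and 2041.38 in Lats1/2PanKO. *Rplp0*, whose protein anchors pairs of P1 and P2 proteins to the ribosome, was lower, at 808.4 ± 92.7 FPKM in WT and 775 ± 40.9 in Lats1/2PanKO. In all 3 genes the mutant values lay inside the WT range.

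*Rpl41*, which encodes the shortest ribosomal protein, was among the highest members as well. It was at 2249.31, 2503.61, 2580.35, 2932.78 and 3335.48 FPKM in WT and 2486.64, 2684.09 and 3208.6 in Lats1/2PanKO. Its mutant values again lay within the WT range.

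The lower end was thinly filled. Among tested members the 4 lowest were *Rps4l* at a mean of 43.4 FPKM, *Rps15a* at 62.4, *Rpl30* at 103.3 and *Rps27l* at 141.4. *Rps4l* and *Rps27l* are duplicate copies of *Rps4x* and *Rps27*, which stood at 756.7 and 1681.55 FPKM. *Rps15a* encodes a core protein of the small subunit, and its listed value was 58.4, 58.3, 65.8, 63.6 and 71.4 FPKM in WT and 59.5, 62.7 and 59.7 in Lats1/2PanKO. Low as that value was, it was highest in WT replicate 5, as in the abundant members. The median length of its basic coding transcripts in GENCODE M21 was 5130 bases, beside a median of 771 over the tested members. FPKM are scaled by transcript length, and whether length had a part in the low value was not tested.

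Of the 3 members below the limit of the test, *Rpl10l* and *Rpl39l* were listed at 0 in all 8 libraries and *Rpl3l* in 7, with 0.3162 FPKM in Lats1/2PanKO replicate 2. These are duplicates known from testis (*Rpl10l* and *Rpl39l*) and from heart and skeletal muscle (*Rpl3l*). Their common forms *Rpl10*, *Rpl39* and *Rpl3* were at means of 880.1, 1007.2 and 859.8 FPKM.

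**Figure D1:**
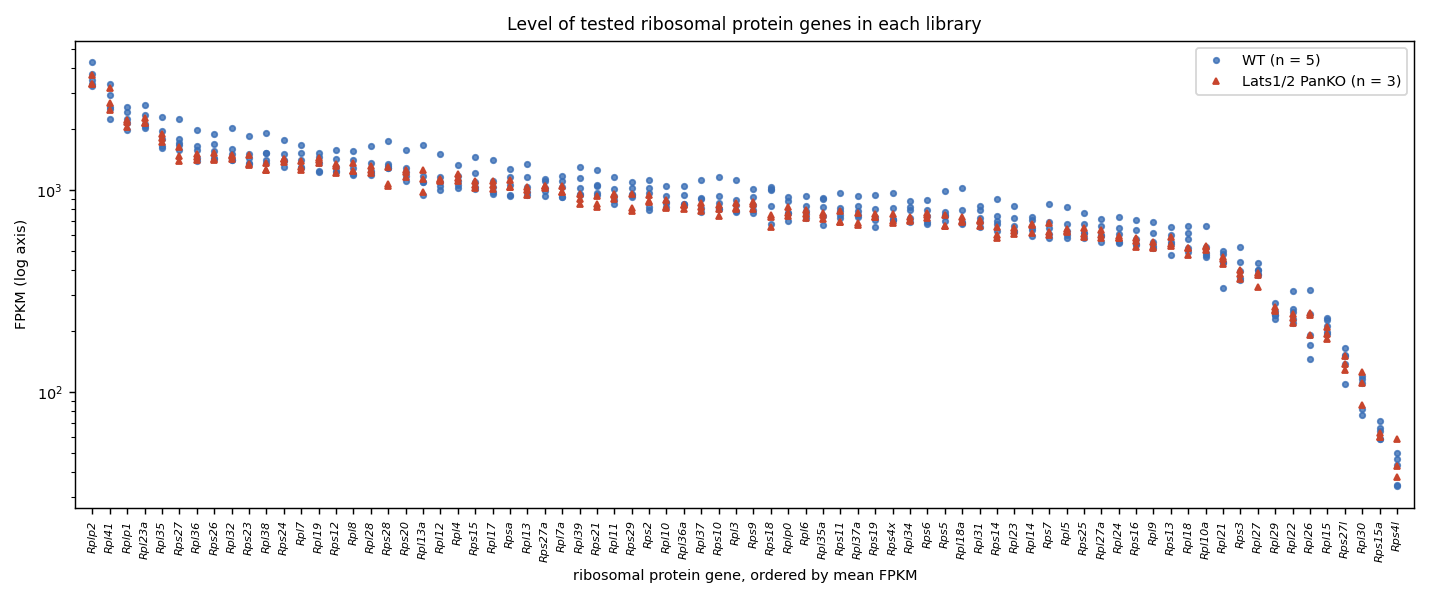
FPKM of 76 of the tested ribosomal protein genes in each library, on a log axis and ordered by mean, with WT libraries as circles (n = 5) and Lats1/2PanKO libraries as triangles (n = 3). Most genes lie between 500 and 1500 FPKM, Rps4l is lowest at a mean of 43.4 FPKM, and the genotypes overlap for nearly all genes.

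From bud to bud the members moved together. Each library was described by the median, over the 78 genes, of the difference between log2(FPKM + 1) there and the mean of the 5 WT libraries. That median was -0.15, -0.13, -0.04, 0.07 and 0.25 in WT replicates 1 to 5 and -0.12, -0.03 and -0.11 in Lats1/2PanKO replicates 1 to 3. Over all 13777 tested genes the same median stayed between -0.01 and 0.01. Over the 704 other genes of at least 100 FPKM it was -0.06, -0.06, 0.04, 0.09 and 0.01 in WT replicates 1 to 5. In Lats1/2PanKO replicates 1 to 3 it was -0.05, 0.03 and -0.05. Other abundant genes thus shared part of the pattern, but their median did not show the rise in WT replicate 5. WT replicate 5 was the highest library for 72 of the 78 members, and the middle 50% of members there lay between 0.21 and 0.32. WT replicate 1 was the lowest library for 30 members, WT replicate 2 for 18, Lats1/2PanKO replicate 1 for 15 and Lats1/2PanKO replicate 3 for 12.

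The spread of a typical member was therefore mostly shared. Its SD over the 5 WT libraries had a median of 0.181 on the log2(FPKM + 1) scale, and 0.054 once the median of the members in each library was subtracted. The median SD of all tested genes was 0.165, and that of the 704 other genes of at least 100 FPKM was 0.125. WT replicate 5 also had the most FPKM in small RNA rows (26.1% of its sum) and a red blood cell marker sum of 11740 FPKM, which only WT replicate 4 exceeded, at 15280. The red blood cell sums were 2570, 5251, 5635, 15280 and 11740 FPKM in WT replicates 1 to 5. The members' medians in the same order were -0.15, -0.13, -0.04, 0.07 and 0.25. In Lats1/2PanKO replicates 1 to 3 the sums were 9829, 7772 and 8551 FPKM, and the medians -0.12, -0.03 and -0.11. Whether the shallower depth of WT replicate 5, its cell makeup or its small RNA content had a part in its high values was not tested. In bulk RNA of a bud, a change in the number of cells of a type and a change in RNA per cell cannot be told apart.

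**Figure D2:**
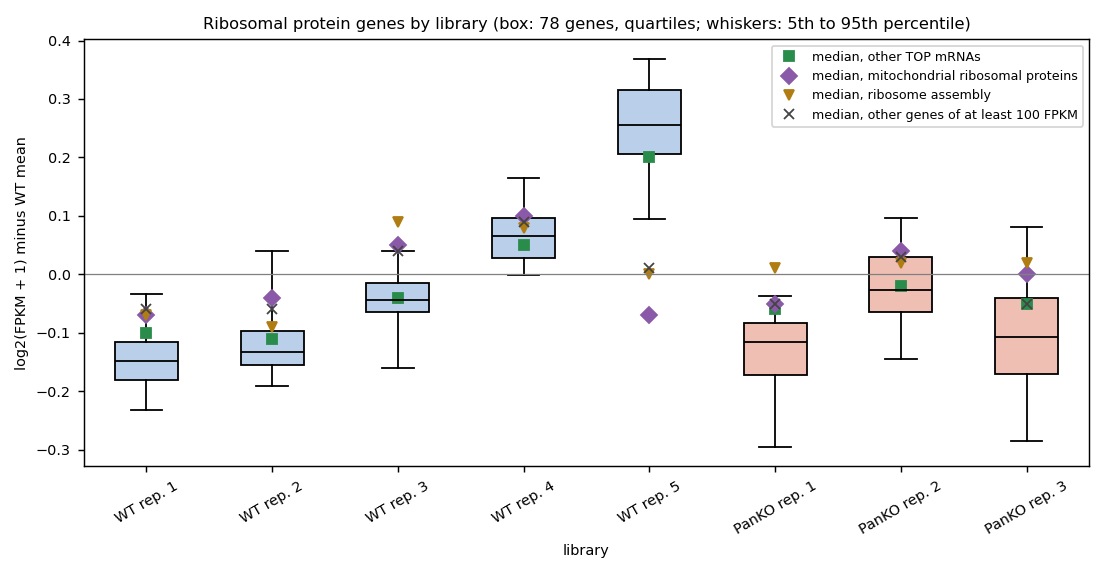
Difference from the WT mean on the log2(FPKM + 1) scale by library, with boxes for the quartiles and whiskers for the 5th to 95th percentiles of the 78 ribosomal protein genes, and symbols for the medians of 4 other groups of genes. The members' median runs from -0.15 in WT replicate 1 to 0.25 in WT replicate 5, where the median of mitochondrial ribosomal protein genes is -0.07.

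Some of the members share a pyrimidine run at their start. The start sites below were read from RefSeq (GRCm38.p6), whose promoter table matched 60 of the 81 members by symbol. A start was counted when the annotated first base was a C and at least the next 4 bases were C or T, for any annotated start of a gene. That held for 13 of 60 members (21.7%), for 813 of 27025 genes of the whole table (3.01%), for 6 of 18 other TOP mRNAs (33.3%) and for 0 of 68 mitochondrial ribosomal protein genes (0.0%). With such a run allowed to begin within 5 bases of the annotated start, the shares were 46.7%, 21.2%, 50% and 25%. The stretches show the 8 bases before the annotated start and the first 20 bases of the transcript, 5′ to 3′ on the gene's strand, with the pyrimidine run from the annotated start in capitals. *Rplp2*, *Rpl35* and *Rps27* are shown as abundant members with a run. *Rpl38*, *Rps21* and *Rps18* are shown as members with a run whose fold changes were among the lowest, though none passed the test. *Rps28* and *Rpl39*, with log2 fold changes of -0.3 and -0.24, had no run at the annotated start and are not shown. *Rps6* is shown for its role, *Rps15a* for its low listed FPKM, and *Rpl41* as an abundant member without a run.
Rplp2 (chr7:141447643-141447670, + strand): gcgtcttcCTTTCgccgccggacgccgc
Rpl35 (chr2:39005112-39005139, - strand): gccctttcCTCTTTCTCTCgaaccaggc
Rps27 (chr3:90213629-90213656, - strand): ctttcgctCCTTTCCggcggtgacgacc
Rpl38 (chr11:114668572-114668599, + strand): gcctcgttCTTTCCCCgttctcttcggt
Rps21 (chr2:180257371-180257398, + strand): gacccgccCTCCTgcccaatagtgctgc
Rps18 (chr17:33955646-33955673, - strand): cttccgctCTCTCTTCCacaggaggcct
Rps6 (chr4:86857348-86857375, - strand): agtcgggcCTCTTTTTCgtgacgcctcc
Rps15a (chr7:118116128-118116155, - strand): tctgccatCTTCCCTCgccggtgagtga
Rpl41 (chr10:128549149-128549176, - strand): gccggctcggaagtgacgacaccgagca
A run at the annotated start was present in the abundant *Rplp2* as in *Rps15a*, the second lowest of the tested members by listed FPKM. Where no run was found, these letters were not at that annotated base, and nothing follows from it about how the mRNA is translated.

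The study asked what the loss of Lats1/2 does to gene expression at E11.0. For the ribosomal protein genes the genotypes differed little, and most of the difference in log2 fold change was gone without 1 WT bud. With all 8 libraries, 70 of the 78 tested members had a log2 fold change (Lats1/2PanKO minus WT) below 0, with a median of -0.08, beside 53.1% of all tested genes and a median of -0.01. Without WT replicate 5, 44 of the 78 were below 0, with a median of -0.01, beside 52.6% of all tested genes. With the replicate number as a block the median was 0.03 and 51 members were higher. WT replicates 4 and 5 have no mutant of the same number, so that fit compares replicates 1 to 3 only. It is thus no check apart from leaving those libraries out. Under quantile normalization 34 were higher and 44 lower. The set has no direction that holds under all settings, though only the replicate block, 1 of 18 alternatives, turned the median above 0. Adding up the members, their share of the summed FPKM over rows that are not small RNAs was 16%, 16%, 16.4%, 16.6% and 19.2% in WT and 15.9%, 16.3% and 15.9% in Lats1/2PanKO. The mean was 16.8% ± 1.34 in WT (SD, n = 5), 16.2% ± 0.3 without WT replicate 5 and 16% ± 0.231 in Lats1/2PanKO (n = 3). Over all rows, small RNAs included, WT replicate 5 did not stand out, at 14.2%. That mean share was 13.68% ± 0.719 in WT, 13.55% ± 0.759 without WT replicate 5 and 13% ± 0.8 in Lats1/2PanKO. Most of this small difference stayed without that bud, but the share also moves with the small RNA rows.

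No single member passed the test. With limma on log2(FPKM + 1) and Benjamini-Hochberg adjustment over all tested genes, 0 of 78 members had an adjusted p under 0.05, beside 0.0145% of all tested genes, and the smallest adjusted p of a member was 0.419. A single member, *Rps21*, had an unadjusted p under 0.05, beside 11.3% of all tested genes (4.99% for lower alone). The values of the genotypes did not overlap for 2 members, *Rps21* and *Rpl36a*, both lower in Lats1/2PanKO, beside 7.51% of all tested genes (3.06% for lower alone). Without WT replicate 5 the count was also 2, beside 10.5% of all tested genes. For 49 members all 3 mutant values lay inside the WT range. Of the 78 members 70 differed by at most 0.2 on the log2 scale and 43 by at most 0.1, with standard errors from 0.07 to 0.23 and a median of 0.12, so a difference of that order in a single member was not detectable with these numbers of buds.

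**Figure D3:**
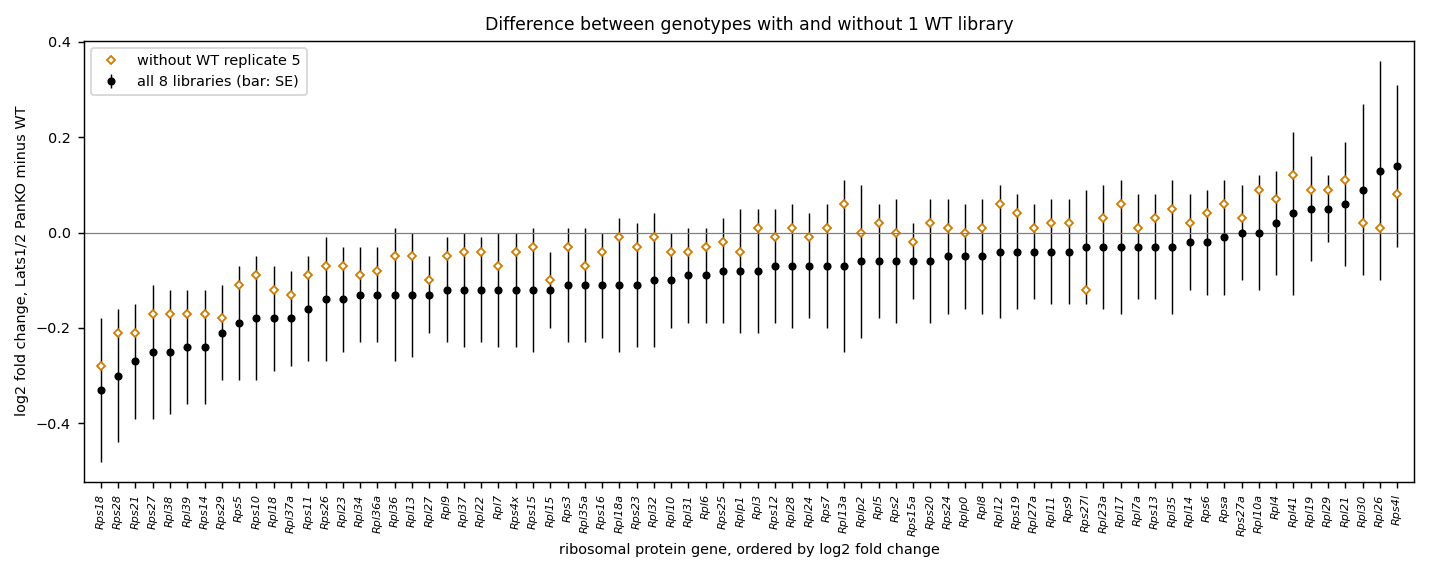
Log2 fold change (Lats1/2PanKO minus WT) of 76 of the tested ribosomal protein genes with all 8 libraries (filled circles, bars for the standard error) and without WT replicate 5 (open diamonds). With all libraries most genes lie below 0, from -0.33 for Rps18 to 0.14 for Rps4l, and without WT replicate 5 most lie nearer to 0 or above it.

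The 3 members with the lowest fold changes belonged to the small subunit. *Rps21* (chr2:180257379-180258444) encodes a small subunit protein that takes part in 18S rRNA maturation, and it was at 965.7, 947.3, 1039.25, 1054.58 and 1259.11 FPKM in WT and 854, 931.6 and 819.8 in Lats1/2PanKO. All mutant values lay below all WT values. Its log2 fold change was -0.27 ± 0.12 (SE; limma adjusted p = 0.419) and -0.21 without WT replicate 5.

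*Rps18* (chr17:33951999-33955641) encodes a protein of the head of the small subunit and had the lowest fold change of the set, -0.33 ± 0.15 (limma adjusted p = 0.465). It was at 675.8, 1005.05, 1002.66, 826.7 and 1037.3 FPKM in WT and 655, 750.7 and 737.2 in Lats1/2PanKO. WT replicate 1 lay within the mutant values, so the genotypes overlapped. *Rps18* was also among the members that left the common pattern of the libraries, as described below.

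*Rps28* (chr17:33823037-33824498) encodes a protein near the mRNA exit of the small subunit and is a Diamond-Blackfan anemia gene. It was at 1309.99, 1287.49, 1347.27, 1286.42 and 1745.86 FPKM in WT and 1048.68, 1291.14 and 1062.36 in Lats1/2PanKO. WT replicates 1 to 4 lay close together, WT replicate 5 stood far above them, and Lats1/2PanKO replicate 2 reached the lower WT values. The fold change was -0.30 ± 0.14 (limma adjusted p = 0.483), and -0.21 without WT replicate 5. *Rps27*, a further Diamond-Blackfan anemia gene, was at 1792.54 ± 255.9 FPKM in WT and 1496.56 ± 127.5 in Lats1/2PanKO, a log2 fold change of -0.25 ± 0.14 with overlap.

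*Rpl36a* (chrX:134585654-134588062), a large subunit gene, was the other member without overlap. It was at 849.1, 844.3, 852, 947.3 and 1049 FPKM in WT and 802.4, 839.1 and 841.3 in Lats1/2PanKO. The highest mutant value lay just below the lowest WT value, and the log2 fold change was -0.13 ± 0.10 (limma adjusted p = 0.686), less than that of several members whose genotypes overlapped.

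The 4 largest differences upward were smaller and belonged to *Rps4l* (0.14 ± 0.17), *Rpl26* (0.13 ± 0.23), *Rpl30* (0.09 ± 0.18) and *Rpl21* (0.06 ± 0.13, log2 ± SE). Each was below its standard error. Without WT replicate 5 the log2 fold changes were 0.08 for *Rps4l*, 0.01 for *Rpl26*, 0.02 for *Rpl30* and 0.11 for *Rpl21*.

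Members with roles outside the ribosome lay among the rest. *Rpl5* and *Rpl11*, which carry 5S rRNA and bind MDM2, had log2 fold changes of -0.06 ± 0.12 and -0.04 ± 0.11. *Rps6*, the substrate of the S6 kinases, was at 677.8, 693, 741.8, 796.3 and 893 FPKM in WT and 725.8, 763 and 752.5 in Lats1/2PanKO, a log2 fold change of -0.02 ± 0.11. The mutant values of *Rps6* lay in the middle of the WT range. *Rpsa*, whose protein also serves as a laminin receptor, and *Rps19*, the gene most often mutated in Diamond-Blackfan anemia, had log2 fold changes of -0.01 ± 0.12 and -0.04 ± 0.12.

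Split by subunit, 31 of 32 small subunit members and 39 of 46 tested large subunit and stalk members were below 0, each group with a median of -0.08. Without WT replicate 5 the medians were -0.02 and 0 (log2). Among proteins shared by the ribosomes of all domains of life, 15 of 15 of the small subunit had lower values with a median of -0.11, and 16 of 18 of the large subunit with a median of -0.05. These medians were -0.03 and 0.01 without WT replicate 5. Of the 18 Diamond-Blackfan anemia genes, 17 were below 0 with a median of -0.10, and the median was -0.06 without WT replicate 5.

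Short members had a lower median fold change than the others in these libraries. The length of a gene was the median over its basic coding transcripts in GENCODE M21, found for 77 tested members, with a median of 771 bases. The 22 members under 600 bases had a median log2 fold change of -0.11, and the other 55 a median of -0.07. With all libraries the shares below 0 hardly differed, 20 of 22 short members against 50 of 55 others. Without WT replicate 5 the medians were -0.06 and 0, and 17 of 22 short members against 27 of 55 others were below 0. Across the 77 genes, which share the same 8 libraries and are not independent replicates, Spearman's rho of fold change with length was 0.34, and 0.42 without WT replicate 5. The 121 other genes of at least 100 FPKM with transcripts under 800 bases had a median of -0.05, and -0.07 without WT replicate 5. Whether fragment length or size selection had a part in this was not tested. For level against length the rho was -0.27.

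A few members did not follow the common rise and fall of the libraries. After the members' median was subtracted from each library, the SD over the 8 libraries had a median of 0.059 and exceeded 0.2 for 5 genes, *Rpl26* (0.424), *Rpl30* (0.354), *Rps4l* (0.330), *Rps27l* (0.265) and *Rps18* (0.214). *Rpl26* was at 241.7, 190, 169.9, 318.6 and 145.7 FPKM in WT and 192, 244.6 and 241.2 in Lats1/2PanKO, and was lowest in WT replicate 5, where most members were highest. *Rpl30* was at 115.9, 111, 76.4, 119.9 and 81.7 FPKM in WT and 86.1, 110.8 and 124.8 in Lats1/2PanKO, with WT replicates 3 and 5 lowest.

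*Rpl26* and *Rpl30* each share their locus with a row of another name. *Gm15772*, at the locus of *Rpl26* (chr11:68901566-68904534), was at 1546.07, 2373.22, 1707.85, 1674.61 and 2227.32 FPKM in WT and 1576.76, 1717.32 and 2409.05 in Lats1/2PanKO, well above *Rpl26* itself in every library. *Gm12191*, at the locus of *Rpl30* (chr15:34440506-34443276), was at 560.3, 577.2, 692.3, 655.4 and 746.4 FPKM in WT and 609.6, 582.7 and 530.9 in Lats1/2PanKO, and was highest in WT replicate 5. How fragments were divided between the rows of a shared locus cannot be read from FPKM, so the levels of *Rpl26* and *Rpl30* are uncertain. The same holds for *Rpl34*, whose locus holds *Rpl34-ps1* with values from 0.008184 to 98.9 FPKM, and less for *Rps27*, whose neighbour *Rps27rt* stayed at or under 0.147 FPKM.

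*Rps4l* and *Rps27l* are duplicates of a common form, and 7 members including *Rps4l* had a listed locus over 20000 bases. *Rps4l* was at 34, 49.9, 43.5, 46.3 and 34.6 FPKM in WT and 37.7, 43.1 and 58 in Lats1/2PanKO. *Rps27l* was at 137.6, 151.8, 150.5, 164.8 and 109.8 FPKM in WT and 137.8, 150.8 and 128.4 in Lats1/2PanKO, and was lowest in WT replicate 5, against the direction of *Rps27*. Reads of such near-copies, and of the many processed pseudogenes of this family, can be split between rows by the authors' counting.

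**Figure D4:**
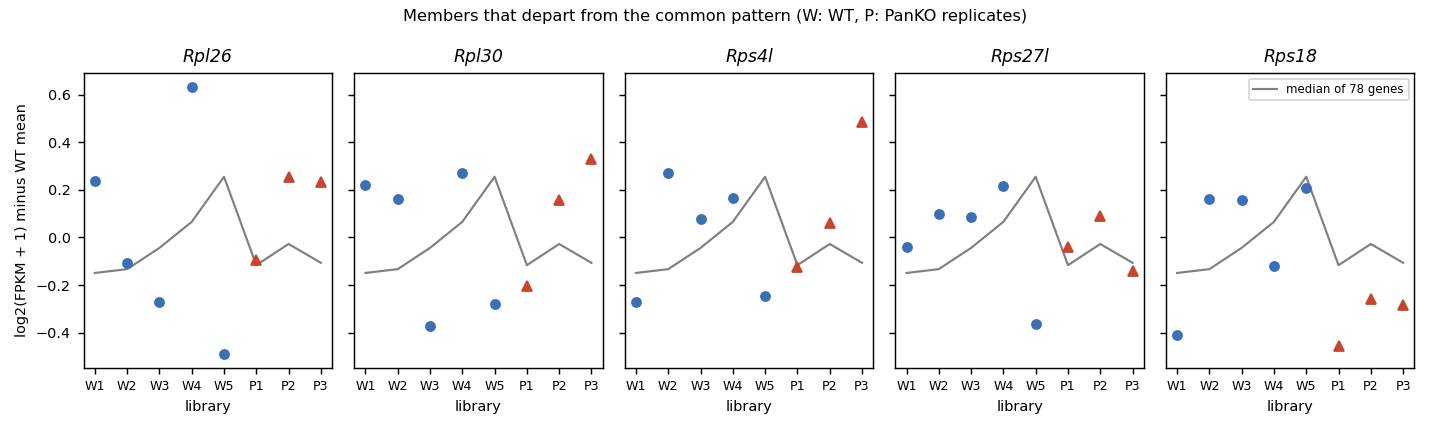
Difference from the WT mean on the log2(FPKM + 1) scale in each library (W1 to W5, WT; P1 to P3, Lats1/2PanKO) for the 5 members with a centred SD over 0.2, with the median of the 78 members as a grey line. Rpl26, Rpl30, Rps4l and Rps27l lie below 0 in WT replicate 5, where the members' median is 0.25.

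Core proteins of the ribosome whose names the rule does not cover behaved like the members. *Rps3a1* was at 994.7 ± 104.7 FPKM in WT and 990.3 ± 17.1 in Lats1/2PanKO. *Fau*, which encodes a ribosomal protein fused to a ubiquitin-like domain, had a log2 fold change of -0.09 ± 0.13. Both were highest in WT replicate 5, at 1152.54 and 1258.93 FPKM.

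Duplicates outside the name rule did not share a pattern. *Rpl22l1*, the paralog of *Rpl22*, was at 201, 178.9, 196, 189.2 and 257.1 FPKM in WT and 171.5, 176.7 and 149.1 in Lats1/2PanKO, without overlap, and its log2 fold change of -0.29 ± 0.12 did not pass the limma test (adjusted p = 0.399). *Rpl22* itself was at 253.6 ± 36.9 FPKM in WT and 231.4 ± 11.5 in Lats1/2PanKO (-0.12 ± 0.11, log2). *Rpl36al* was at 307.9 ± 32.1 and 330.7 ± 7.88 FPKM, with its lowest value, 262.3, in WT replicate 5, and *Rpl7l1* was at 69.6 ± 5.87 and 70.2 ± 3.54 FPKM.

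Introns of ribosomal protein genes carry small nucleolar RNAs, which guide modification of ribosomal RNA. The table held 29 such rows at the loci of 20 members, 15 of them above 0 in all libraries and 5 at 0 in all. *Snord34*, in *Rpl13a*, ranged from 1343.25 to 11356.2 FPKM. *Snord68*, in *Rpl13*, was listed at 0 in 6 libraries and at 9388.48 and 6684.14 FPKM in WT replicate 1 and Lats1/2PanKO replicate 1. Apart from the rows at 0 in all libraries, the values of most of these RNAs spread more widely over the libraries than those of their host genes. Whether the short length of these RNAs had a part in this was not tested.

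In WT replicate 5 other mRNAs of the TOP class stood high as well, while most other lists around the ribosome lay near the WT mean. Against the WT mean, WT replicate 5 had a median difference of 0.20 for the 26 other TOP mRNAs and 0.31 for 17 snoRNA host genes without a protein product (log2). The same median was 0.04 for 38 initiation factors, 0 for 14 elongation and termination factors, 0.08 for 15 genes of RNA polymerase I transcription, 0 for 81 ribosome assembly genes and -0.07 for 77 mitochondrial ribosomal protein genes. Some of these lists share genes. Mitochondrial ribosomal proteins build a separate ribosome inside mitochondria, and their mRNAs are not of the TOP class.

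Between genotypes, 0 genes of these lists passed the limma test at an adjusted p under 0.05. The other TOP mRNAs had 20 of 26 below 0 with a median log2 fold change of -0.04, and 0.01 without WT replicate 5. Among them the elongation factor subunit *Eef1b2* was at 355.9 ± 48.3 FPKM in WT and 331.6 ± 10.2 in Lats1/2PanKO. Initiation factors had 18 above and 20 below 0 with a median of -0.01. *Eif4ebp2*, a repressor of eIF4E downstream of mTOR, was at 29.6 ± 3.77 FPKM in WT and 34.6 ± 1.82 in Lats1/2PanKO without overlap (0.23 ± 0.11, limma adjusted p = 0.493). Elongation and termination factors were even, 7 above and 7 below 0. Their kinase *Eef2k*, which inhibits eEF2, was at 3.91 ± 0.554 FPKM in WT and 2.68 ± 0.202 in Lats1/2PanKO without overlap (-0.41 ± 0.13, limma adjusted p = 0.3). Without overlap were 1 of 38 initiation factors and 1 of 14 elongation and termination factors, beside 7.51% of all tested genes.

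Ribosome assembly genes had 46 above and 35 below 0, with a median log2 fold change of 0.01. *Rrp7a*, a factor of small subunit processing, was at 30.2, 31.9, 31.2, 33.2 and 27.4 FPKM in WT and 41.2, 39 and 38.7 in Lats1/2PanKO. The genotypes did not overlap, and its log2 fold change of 0.36 ± 0.07 did not pass the limma test (adjusted p = 0.136). *Nop10*, a protein of H/ACA snoRNPs, was at 81.6 ± 6.93 and 68.5 ± 5.66 FPKM without overlap (-0.25 ± 0.08). No other of the 81 assembly genes was without overlap, beside 7.51% of all tested genes. RNA polymerase I genes had 7 above and 8 below 0, snoRNA host genes 3 and 14, and regulators of ribosome synthesis such as the MYC and mTOR genes 8 and 13. *Myc* was at 19.1 ± 1.89 FPKM in WT and 21.4 ± 2.43 in Lats1/2PanKO, and *Mycn* at 44.3 ± 9.42 and 38.4 ± 6.59, both with overlap.

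Mitochondrial ribosomal protein genes had 40 above and 37 below 0, with a median log2 fold change of 0. *Mrpl36* was at 18.4, 17.2, 18.5, 18.1 and 16.9 FPKM in WT and 22.7, 21.3 and 22.7 in Lats1/2PanKO, without overlap (0.31 ± 0.06, limma adjusted p = 0.141). *Mrps18b* was higher without overlap as well, at 17.5 ± 2.56 and 23.5 ± 1.43 FPKM, and *Mrps6* had a log2 fold change of -0.26 ± 0.09 with overlap. Of the 77 genes, 2 were higher and 0 lower without overlap, beside 4.46% and 3.06% of all tested genes.

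Targets of p53, which free ribosomal proteins can stabilize, had 15 of 23 above 0 with a median log2 fold change of 0.05. At an unadjusted p under 0.05 were 8 of the 23, all higher, beside 6.29% of all tested genes in that direction, and for 6 the genotypes did not overlap, beside 4.46%. With adjustment 0 of 23 passed. *Cdkn1a*, the cell cycle inhibitor p21, was at 3.56, 3.70, 3.69, 4.14 and 3.02 FPKM in WT and 7.33, 4.88 and 12.45 in Lats1/2PanKO (0.92 ± 0.23, limma adjusted p = 0.209). *Sesn1* was at 8.72 ± 1.83 and 18.5 ± 6.02 FPKM (0.98 ± 0.20, limma adjusted p = 0.14), and *Ddit4l* at 0.556 ± 0.237 and 1.39 ± 0.386 (0.62 ± 0.18). *Mdm2*, the p53 target that RPL5 and RPL11 bind as a protein, was at 26.95 ± 0.957 and 27.7 ± 2.22 FPKM with overlap. These genes have other regulators, and the larger summed FPKM of epithelial markers in Lats1/2PanKO stands beside their values. Its part in them was not tested.

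**Figure D5:**
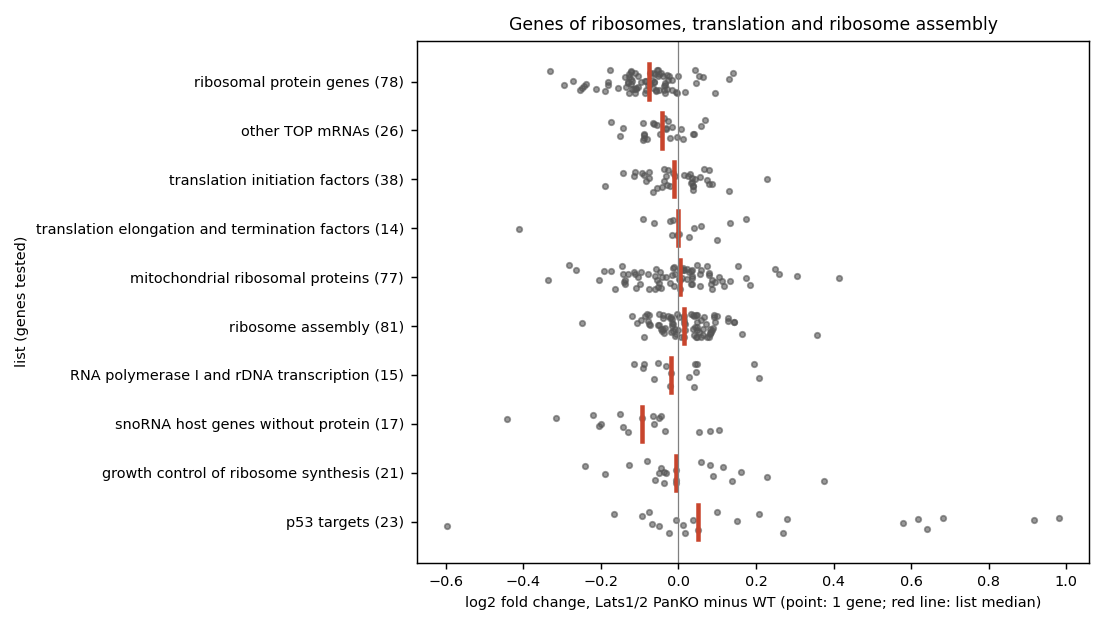
Log2 fold change (Lats1/2PanKO minus WT) of each tested gene in 10 lists around the ribosome, 1 point per gene (spread vertically for sight), with the list median as a red line. The median is -0.08 for the 78 ribosomal protein genes, 0.01 for ribosome assembly, 0 for mitochondrial ribosomal proteins and 0.05 for p53 targets.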

How the data were processed

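Total RNA from 8 E11.0 pancreas buds was depleted of rRNA and sequenced as stranded libraries. The authors trimmed reads with cutadapt 1.12 and aligned them with TopHat2 2.1.0 to mm10, and deposited FPKM per gene, made with Cufflinks 2.2.1. The methods mention quantile normalization, yet quantiles differ between the columns, and the FPKM were used as deposited. Separate buds are biological replicates.

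The 13777 genes that averaged 0.5 FPKM or more were tested with limma 3.58.1 (trend) in R 4.3.3 on log2(FPKM + 1), WT (n = 5) against Lats1/2PanKO (n = 3), with Benjamini-Hochberg adjustment over all of them and a threshold of 0.05. Fold changes are on that scale and understate those of low genes. The code was tested on simulated data. Over gene lists only counts and medians are given. Members, lists and named genes were chosen with earlier results of these data known. Members named are the 4 highest and 4 lowest, the 4 largest differences each way, the 3 smallest p, those without overlap, and those fixed by role, and elsewhere the 3 smallest p of a list. *Myc*, *Mycn* and *Mdm2* were added for their role, and members that leave the common pattern, rows at shared loci and snoRNAs after their values were seen. Alternatives were other pseudocounts, filters and scalings, array weights, no trend, a replicate block and each library left out. Loci are the authors' (mm10), with 1 added to the start. Some genes are not reported here by name. Figures were drawn with matplotlib 3.10.9.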

Additional observations from a re-analysis of the deposited data

Results flagged for a closer look

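Of 30 values checked for a sample far from its group (27 named members and 3 library values), 2 stood out, both in WT replicate 5. For *Rps28* that library was at 1745.86 FPKM, and the gap to the next WT library was 0.87 of the WT range, beyond the limit of 0.71 for 5 samples. The share of the summed FPKM held by ribosomal protein genes, without small RNA rows, was 19.2% there, with a gap of 0.81 of the range. Chance alone flags about 1 in 20 groups. Over all 78 tested members 3 were flagged in this way (3.85%), each for WT replicate 5, beside 7.41% of all tested genes, for which WT replicate 5 was the flagged library in 555 of 1021 cases.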

How the results depend on the processing

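In the comparison of genotypes, 8 tested ribosomal protein genes were higher and 70 lower, with a median log2 fold change of -0.076. The numbers moved with quantile normalization (34 higher, 44 lower), upper-quartile scaling (13 higher) and array weights (17 higher), and further with the replicate block, given below. With each library left out, 6 to 34 were higher and 44 to 72 lower, and the median ran from -0.115 to -0.011. WT replicate 5 gave the 34, WT replicate 4 gave 14 higher and Lats1/2PanKO replicate 1 gave 16. Relative to the members' own median in each library, an alternative chosen after seeing the data, 47 were higher and 31 lower, but this centring pulls the split towards even by construction and says nothing about the direction. The cause of the other shifts was not tested. The labels number replicates in both genotypes, but equal numbers did not deviate together (r of 0.0855, -0.0969 and 0.0685), so they do not pair the buds. With the replicate block the median was 0.034, with 51 higher and 27 lower. That fit leaves WT replicates 4 and 5 out of the comparison, as no mutant has their number.

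The count of members with an adjusted p under 0.05 was 0 in all 18 alternatives, and 0 to 7 had an unadjusted p under 0.05. Members without overlap numbered 2 to 15 with a library left out, 15 of them without Lats1/2PanKO replicate 2. The share of all tested genes in that setting is not given here. With fewer mutant libraries the values separate more readily, and the members move together, so nothing is read from the 15. Calls over all genes ran from 0 to 174 against 2, with 174 under array weights and 0 without WT replicate 5. In the other lists, array weights called 2 mitochondrial ribosomal protein genes, 1 assembly gene and 2 p53 targets, and 1 p53 target was called without Lats1/2PanKO replicate 2. The difference in the members' share of summed FPKM, -0.68 percentage points, ran from -1.09 to -0.3 with a library left out. FPKM give no counts, so counting error is unknown, and 5 against 3 buds limit what can be seen.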
